A study of Mus musculus with 17 samples.

Results

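The proteasome genes described here are the 50 of 24498 gene symbols in the deposited count table that start with Psma, Psmb, Psmc, Psmd, Psme, Psmf or Psmg followed by a number. The rule uses the symbol and no measured value. Among them, 31 encode the constitutive 26S proteasome: 7 subunits of the alpha ring, 3 catalytic and 4 other subunits of the beta ring, 6 ATPases and 11 non-ATPase subunits of the 19S cap. Psmb8, Psmb9 and Psmb10 encode the 3 catalytic subunits of the immunoproteasome, Psma8 and Psmb11 are the 2 tissue-specific 20S subunits of testis and thymus, and 5 genes (Psme1, Psme2, Psme2b, Psme3 and Psme4) encode activators. Psmf1 encodes the inhibitor PI31, and 7 genes (Psmg1 to Psmg4, Psmd5, Psmd9 and Psmd10) encode chaperones of assembly. The name of 1 further gene, Psmc3ip, matches the pattern, but its product acts in meiotic recombination and is no proteasome subunit.

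The 26S proteasome degrades proteins that carry ubiquitin chains. In its 20S core the catalytic beta subunits cut the substrate inside a chamber closed by the alpha rings, and the 19S cap recognizes, unfolds and feeds the substrate in. Interferon signaling induces Psmb8, Psmb9 and Psmb10, which take the places of Psmb5, Psmb6 and Psmb7 in newly built cores, and in the brain these immunosubunits are known mainly from microglia and other non-neuronal cells. Tau is one of the substrates of the complex, and aggregated tau can inhibit it in test systems.

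RNA came from slices of dorsal hippocampus of wild-type mice (WT) and of mice lacking Acss2 (KO), whose product turns acetate into acetyl-CoA. Mice had been injected in the brain at 6 months of age with tau purified from the cortex of people with Alzheimer's disease (Tau) or with phosphate-buffered saline (PBS), and by the study's methods tissue was taken 6 months later. There were 17 libraries in 6 groups: in males WT PBS, WT Tau, KO PBS and KO Tau with 3 libraries each, and in females KO Tau with 3 and WT Tau with 2. The knockout was germline, WT and KO mice were bred as separate homozygous lines after a shared heterozygous generation, the strain was not given in the sources used here, and no PBS group of females was among the groups. Libraries are named by their number in the labels, in which every female number starts with 3 and every male number with 7, so sex and this numbering cannot be told apart.

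Libraries held between 14183131 and 22463635 counts, and 3 counts, the limit that a count of 0 allows, stood for 0.134 to 0.212 CPM (counts scaled to a fixed library total), covering counting error only. Acss2 lay between 3.09 and 8.94 CPM in the KO libraries and between 44.3 and 55.9 CPM in the WT libraries. Some libraries stood apart before any comparison. The summed level of 10 choroid plexus markers was 5398 CPM in male KO Tau replicate 713 and at most 1089.7 CPM in every other library, and the summed level of 20 ribosomal protein genes was 4629 CPM in male KO Tau replicate 711 against at most 3204 CPM in the other male libraries. All 6 markers of CA1 and CA3 pyramidal neurons and all 8 of dentate granule cells had counts, with summed levels of 840.1 to 2212 CPM and 146 to 641 CPM. Female libraries also differed among themselves. In WT Tau replicates 331 and 341 the pyramidal sums were 840.1 and 1421 CPM and the ribosomal sums 5144 and 3459 CPM. Sums of 6 thalamic markers were 378 and 231 CPM there. They were 143, 474 and 302 CPM in female KO Tau replicates 314, 324 and 325. In bulk tissue, fewer cells of a type and less RNA per cell cannot be told apart.

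The constitutive subunits were abundant. On the TPM scale, which divides by transcript length so that genes can be compared, the means over 17 libraries of the 31 subunits ran from 44.5 for Psmd11, a 19S scaffold subunit, to 407 for Psmc5, an ATPase of the 19S base, with a median of 177. Psmb4, a structural beta subunit, was at 394 TPM, Psmb6, with the caspase-like site, at 326 TPM, and Psmb7, with the trypsin-like site, at 314 TPM. Psmb5, with the chymotrypsin-like site, was at 130.2 TPM. The values for the catalytic subunits therefore lay apart, with Psmb5 between 104 and 168 TPM over the libraries and Psmb6 between 258 and 405 TPM, whereas the ranges of Psmb6 and Psmb7 (261 to 377 TPM) overlapped. Such an order depends on the transcript taken for the length, because reads were counted over all exons of a gene.

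**Figure D1:**
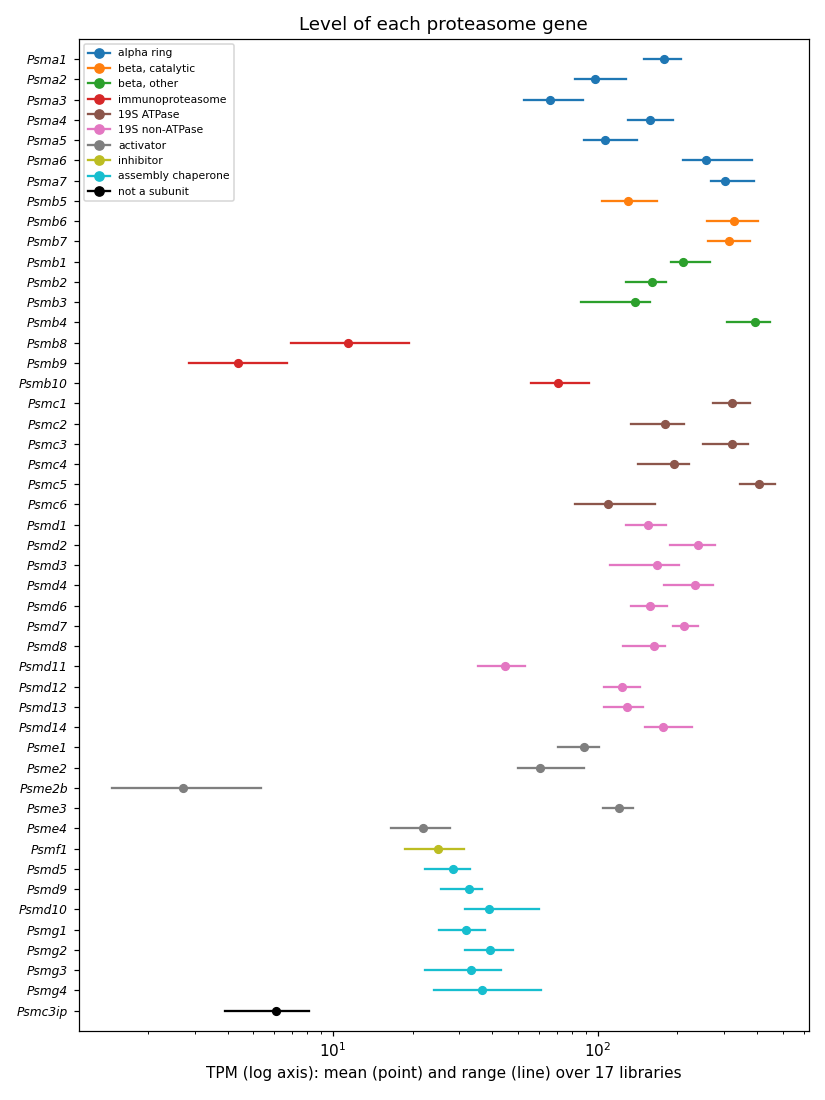
Level of each proteasome gene with more than 15 counts in some library, in TPM on a log axis. Points are means and lines the lowest to highest of 17 libraries; the immunoproteasome genes Psmb8 and Psmb9 sit at 11.4 and 4.37 TPM, below all 31 constitutive subunits.

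The immunosubunits lay below their constitutive counterparts, Psmb10 least so. Psmb8 (LMP7) had a mean of 11.4 TPM and Psmb9 (LMP2) of 4.37 TPM, while Psmb10 (MECL-1) reached 70.9 TPM. Psmb8 was at most 19.3 TPM and Psmb9 at most 6.70 TPM in any library, under the 35.2 TPM that Psmd11 had at its lowest. As a share of the constitutive partner in male WT PBS, Psmb8 was at 6.63% ± 0.596 of Psmb5 (SD, n = 3), Psmb9 at 1.16% ± 0.146 of Psmb6 and Psmb10 at 23.6% ± 0.543 of Psmb7. Psmb9 rested on 25 to 61 counts per library and Psmb8 on 77 to 202, against 454 to 998 for Psmb5. Among the regulators, Psme3, the nuclear PA28gamma activator, was highest at 120.1 TPM, followed by the interferon-inducible pair Psme1 at 88.9 TPM and Psme2 at 60.7 TPM. Psme4 (PA200), the large activator found in nuclei, was at 21.8 TPM and the inhibitor gene Psmf1 at 24.9 TPM. The 7 assembly chaperone genes lay close together, from 28.5 TPM for Psmd5 to 39.2 TPM for Psmg2.

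The tissue-specific genes were at the edge of detection. Psma8, the testis alpha subunit, had 1 to 15 counts per library, and Psmb11, the thymus beta subunit, had 0 to 10. Psme2b, a near-identical copy of Psme2 for which the assignment of reads is uncertain, had 7 to 30 counts, and Psmc3ip had 29 to 85. Psmb11 passed no filter on low counts, and Psma8 passed only in the fit of Tau libraries, which left 48 genes tested in the fit of 12 male libraries and 49 in the fit of 11 Tau libraries. Psma8 passed there through female libraries, with 14 and 15 counts in WT Tau and 10 in KO Tau replicate 324. Its fold changes in that fit are therefore not independent of the filter. Together the 50 genes held 0.311% to 0.442% of all counts in a library.

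The catalytic genes lie at separate places in the GRCm38 genome. Psmb8 (chr17:34197721-34201454) and Psmb9 (chr17:34181987-34187764) are neighbors on opposite strands in the class II region of the major histocompatibility complex, Psmb10 lies at chr8:105935735-105938444, and Psmb5, Psmb6 and Psmb7 at chr14:54614119-54618022, chr11:70525367-70527858 and chr2:38588036-38644087. RefSeq promoter windows (build GRCm38.p6) were at hand for 42 of the 50 genes. In the 250 bases before the RefSeq start, both strands were searched for TGACNNNGC, the core of the antioxidant response element that Nfe2l1 and Nfe2l2 bind. It occurred in 5 of the 42 windows, 11.9%, against 10.2% of all 32851 windows, and its carriers were Psmb5, Psmb6, Psmc6, Psmd9 and Psmd12. The windows of Psmb5 and Psmb6 and of Psmb8 and Psmb9 are shown because they set the constitutive beside the induced catalytic genes whose levels are compared below, and capitals mark a match on either strand.

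Psmb5 (chr14:54617996-54618245, minus strand): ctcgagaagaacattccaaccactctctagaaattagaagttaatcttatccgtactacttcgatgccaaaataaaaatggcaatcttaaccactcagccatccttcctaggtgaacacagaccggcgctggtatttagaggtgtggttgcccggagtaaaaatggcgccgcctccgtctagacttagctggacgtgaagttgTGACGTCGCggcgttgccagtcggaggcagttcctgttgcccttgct

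Psmb6 (chr11:70525107-70525356, plus strand): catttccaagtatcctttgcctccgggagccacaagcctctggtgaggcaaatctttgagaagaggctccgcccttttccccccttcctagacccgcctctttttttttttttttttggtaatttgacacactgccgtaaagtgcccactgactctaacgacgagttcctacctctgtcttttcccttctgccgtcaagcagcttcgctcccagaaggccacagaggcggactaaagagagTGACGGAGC

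Psmb8 (chr17:34197945-34198194, plus strand): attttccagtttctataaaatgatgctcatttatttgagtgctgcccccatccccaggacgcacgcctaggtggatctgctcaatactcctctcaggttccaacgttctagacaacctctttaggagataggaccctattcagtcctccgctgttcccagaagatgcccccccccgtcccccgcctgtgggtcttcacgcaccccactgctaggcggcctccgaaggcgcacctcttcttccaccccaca

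Psmb9 (chr17:34187331-34187580, minus strand): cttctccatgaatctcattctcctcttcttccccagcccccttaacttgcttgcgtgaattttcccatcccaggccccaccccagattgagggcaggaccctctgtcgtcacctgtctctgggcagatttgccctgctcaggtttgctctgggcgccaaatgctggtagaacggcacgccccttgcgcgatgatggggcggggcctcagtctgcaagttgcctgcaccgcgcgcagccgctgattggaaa

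The windows of Psmb8 and Psmb9 do not hold this core, and both lie within their genes as GENCODE draws them. A match or its absence describes these letters only.

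The first question was whether tau alone, the knockout alone or both moved the proteasome genes in males. None of the 48 tested genes was called at an adjusted p (edgeR quasi-likelihood test, Benjamini-Hochberg over all genes tested) below 0.05 in any of the 8 comparisons among male groups, and DESeq2 and limma-voom on the same libraries called 0 as well. The background was as sparse, since of 15098 genes only Acss2 was called for KO PBS against WT PBS, KO Tau against WT PBS, KO Tau against WT Tau and the average of KO over WT (0.00662% each), and 0 genes (0%) for WT Tau against WT PBS, KO Tau against KO PBS, the average of Tau over PBS and the genotype by treatment interaction. At an unadjusted p below 0.05, 0 of 48 members passed for WT Tau against WT PBS (1.86% of all genes did) and 0 for KO PBS against WT PBS (4.42%). For KO Tau, 5 passed against WT PBS (6.33%), 4 against WT Tau (4.71%) and 2 against KO PBS (7.95%). The interaction gave 1 (4.18%), the average of KO over WT 3 (4.58%) and the average of Tau over PBS 3 (5.38%). These shares were those of 0 to 5 genes, and no excess over the background is read from them. In simulated counts for KO Tau against WT PBS, the edgeR test recovered 8% of genes changed by 0.5 on the log2 scale. It recovered 84% of those changed by 1.0, with 8 false calls. A count of 0 called therefore does not exclude changes of the smaller size. For KO Tau against WT PBS and against WT Tau, the study reports many more changed genes. Its figure legend gives fewer KO Tau libraries, and the matching setting is described below.

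**Figure D2:**
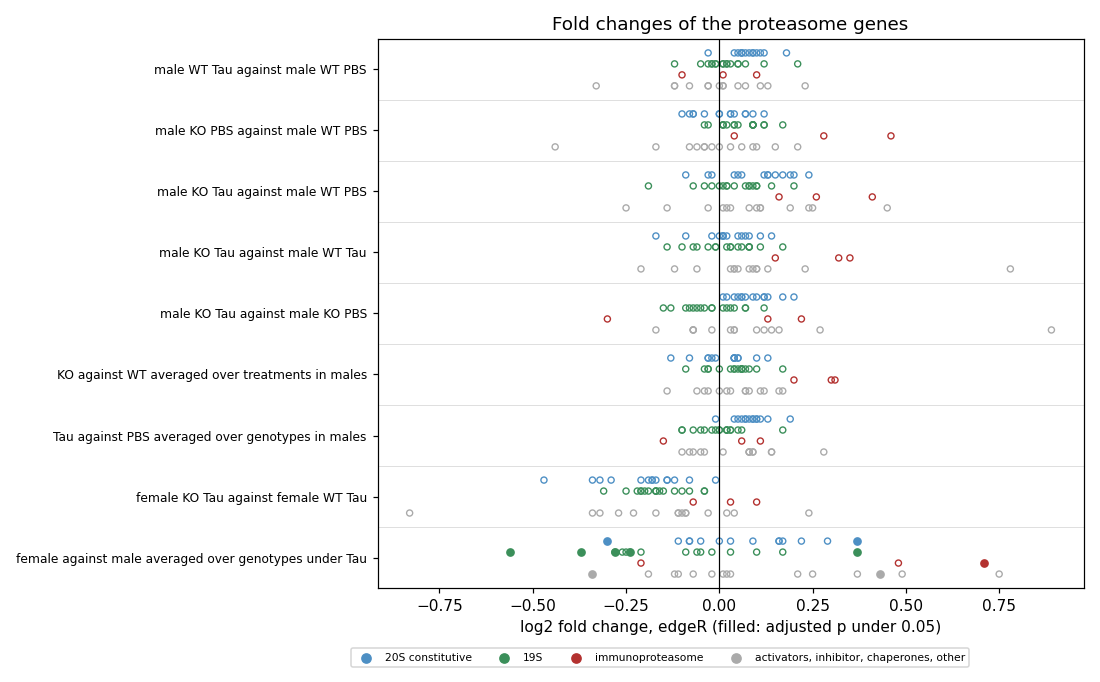
Log2 fold change of every tested proteasome gene in 9 comparisons, from the edgeR fits, with 20S constitutive, 19S, immunoproteasome and other genes on separate lines. Filled points passed an adjusted p of 0.05; they occur only in the comparison of female with male libraries, 10 of 49 genes.

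With tau injection the constitutive genes had small fold changes. In WT males the 31 constitutive subunits had a median log2 fold change of 0.05 for Tau against PBS, from -0.12 for Psmd3, a 19S lid subunit, to 0.21 for Psmc6, a 19S ATPase, and the largest 95% interval among them reached 0.46 from zero. Averaged over genotypes the median was 0.04, with 22 of 31 above zero, against a median of -0.01 over all genes. Psma3, an alpha ring gene, had the largest value at 0.19 ± 0.07 (SE; adjusted p = 0.888). With offsets that removed trends on transcript length and GC content, the 2 medians became -0.01 and -0.04, so the direction of this small shift depended on that choice. Psmb5 was at 36.2, 43.4 and 39.6 CPM in male WT PBS and at 45.6, 41.5 and 42.1 CPM in male WT Tau. These groups overlapped, and the log2 fold change was 0.12 ± 0.09, with a 95% interval from -0.09 to 0.32.

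Values for the knockout were of similar size. For KO PBS against WT PBS the 31 constitutive genes had a median of 0.04, from -0.10 for Psmb2, a structural beta subunit, to 0.17 for Psmc5. Over all members the highest value there was that of Psmb9, at 0.46 ± 0.29 (edgeR, adjusted p = 0.999). For KO Tau against WT PBS, the comparison that joins both interventions, the median was 0.07 and 23 of 31 genes were above zero, against a median of 0.00 and 49.3% above zero over all genes. That median was 0.01 without male KO Tau replicate 712, 0.12 without replicate 711 and 0.02 with length and GC offsets. Psmb6 was at 88.3, 86.3 and 86.1 CPM in male WT PBS and at 96.7, 106 and 96.1 CPM in male KO Tau. All KO Tau values lay above all WT PBS values, with a log2 fold change of 0.19 ± 0.07 that did not pass adjustment (adjusted p = 0.783). Psmd5, the gene for the S5b chaperone of the 19S base, had the lowest fold change, from 45.9, 48.04 and 51.99 CPM to 36.3, 43.7 and 42.9 CPM. Its groups did not overlap either, and its value was -0.25 ± 0.09 (adjusted p = 0.783).

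Psme2b and Psme2 had the highest values among the activators. Psme2b went from 0.542, 0.687 and 0.965 CPM in male WT PBS to 0.838, 0.892 and 1.24 CPM in male KO Tau, a log2 difference of 0.45 ± 0.30, and was the member with the highest fold change in 5 of the 8 male comparisons. It was also the member with the lowest in WT Tau against WT PBS (-0.33 ± 0.32) and KO PBS against WT PBS (-0.44 ± 0.32). Its interaction of 1.22 ± 0.44 had an adjusted p of 0.996. Psme2 itself was at 17.5 to 19.7 CPM in the 9 libraries of the other male groups and at 22.9, 22.9 and 20.5 CPM in male KO Tau. The KO Tau values lay above those of each other male group, with log2 fold changes of 0.25 ± 0.09 against WT PBS, 0.23 ± 0.09 against WT Tau and 0.27 ± 0.09 against KO PBS, and adjusted p of 0.783, 0.927 and 0.550. These comparisons share the KO Tau libraries. Its partner Psme1 differed by 0.08 ± 0.12 from male WT PBS, and Psme3 and Psme4 by -0.14 ± 0.07 and 0.03 ± 0.12.

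The immunosubunits had a larger spread between libraries than the constitutive genes in 3 of the 4 male groups, at lower counts. The median SD of log2 CPM within a group was 0.28 to 0.37 for Psmb8, Psmb9 and Psmb10 in the male WT Tau, male KO PBS and male KO Tau groups, against 0.05 to 0.13 for the constitutive 26S genes there, and in male WT PBS it was 0.06 against 0.05. Counting error alone would give a median SD of 0.13 to 0.16 for the immunosubunits in male groups and 0.03 to 0.04 for the constitutive genes. Psmb8 was at 4.77, 4.81 and 4.64 CPM in male WT PBS, 5.76, 5.48 and 4.01 CPM in male WT Tau, 4.86, 5.25 and 7.19 CPM in male KO PBS and 8.31, 4.72 and 5.99 CPM in male KO Tau. The 2 highest male values came from replicates 711 and 753, and the groups overlapped. For KO Tau against WT PBS its log2 fold change was 0.41 ± 0.23, with a 95% interval from -0.09 to 0.92 (adjusted p = 0.823). Without replicate 711 it was 0.18. Psmb9 gave 0.16 ± 0.29 and turned to -0.07 without replicate 711, and Psmb10 gave 0.26 ± 0.16. Averaged over treatments, KO against WT was 0.30 ± 0.16 for Psmb8, 0.31 ± 0.21 for Psmb9 and 0.20 ± 0.12 for Psmb10, each with an adjusted p of 0.945. Without replicate 711 the values of Psmb8 and Psmb9 were 0.18 and 0.19, and without male KO PBS replicate 752 those of Psmb9 and Psmb10 were 0.16 and 0.12.

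**Figure D3:**
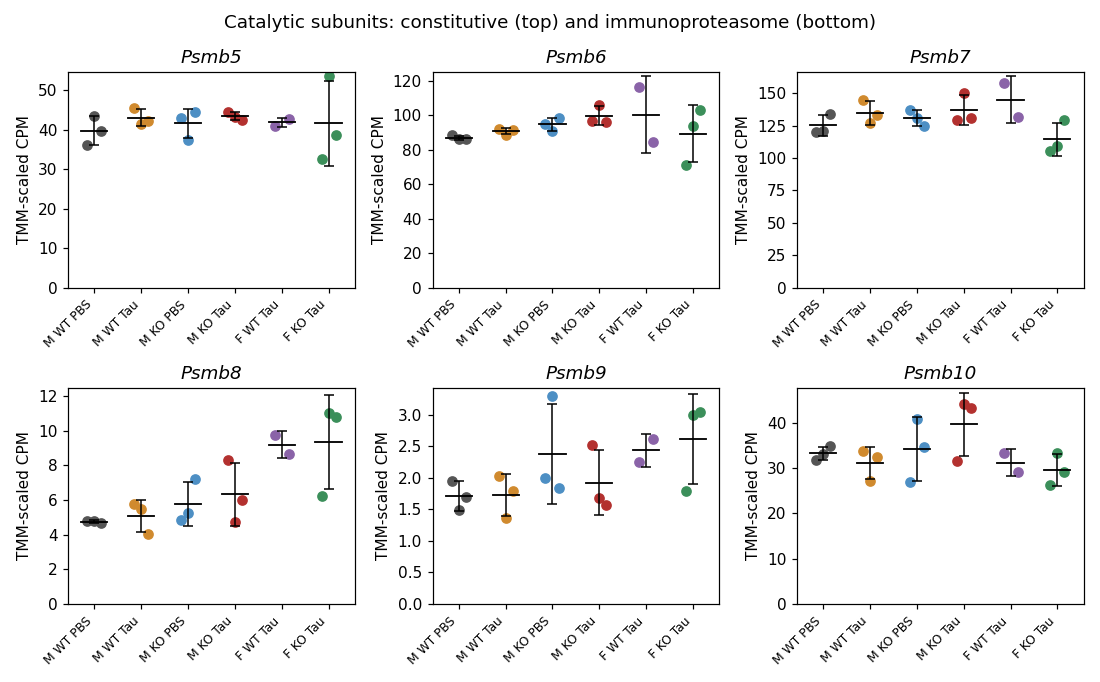
CPM per library of the constitutive catalytic genes Psmb5, Psmb6 and Psmb7 (top) and their immunoproteasome counterparts Psmb8, Psmb9 and Psmb10 (bottom), on axes from 0; points are libraries, horizontal lines means and bars SD. Psmb8 is at 8.65 and 9.74 CPM in female WT Tau against 4.01 to 5.76 CPM in male WT Tau, while Psmb5 overlaps between these groups.

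The balance between the catalytic genes was tested as the log2 ratio of each immunosubunit to its constitutive partner, with exact two-sided permutation tests within strata and adjustment over 6 tests. The ratio of Psmb8 to Psmb5 was higher in KO than WT by 0.17 on the log2 scale over 3 strata (permutation p = 0.196, adjusted 0.473), with 0.19 in male PBS, 0.28 in male Tau and 0.02 in female Tau. The ratio of Psmb9 to Psmb6 differed by 0.19 (p = 0.265, permutation) and that of Psmb10 to Psmb7 by 0.18 (p = 0.104, permutation), and both adjusted to 0.473. Without male KO PBS replicate 751, the last of these was 0.24 with a permutation p of 0.004 (adjusted 0.024), the only one of the planned ratio tests that passed when a library was left out. Tau against PBS in males gave 0.01, -0.21 and -0.03 for the pairs in that order, with permutation p of 0.970, 0.315 and 0.850. The smallest p that these designs allow is 0.00025 for KO against WT and 0.005 for Tau against PBS.

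Over the constitutive 26S genes, male KO Tau replicate 712 lay furthest from its group, with a median log2 difference of 0.20 from the other replicates. Replicates 711 and 713 differed by -0.11 and -0.07. In the 19S subunits and the immunosubunits, replicate 711 carried much of the spread. Its 19S subunits had a median log2 difference of -0.31 from the other replicates of the group, its constitutive 20S subunits of -0.04 and its immunosubunits of 0.63. The immunosubunits did not share a direction. Psmb8 (8.31 against 4.72 and 5.99 CPM) and Psmb9 (2.51 against 1.68 and 1.57 CPM) were higher than in replicates 712 and 713, and Psmb10 was lower. Psmd3 was at 112 CPM there against 159 and 151 CPM in replicates 712 and 713, and Psmd2, a large scaffold subunit of the 19S base, at 218 against 298 and 287 CPM. With DESeq2 on only the groups compared and this library left out, 1029 genes (5.33% of 19302) were called for KO Tau against WT PBS. Against WT Tau, 1378 genes (7.13%) were called. The study, which used the same program, reports the same numbers of changed genes for these comparisons. Its figure legend gives fewer KO Tau libraries than were deposited, and it does not name a library left out. In this setting, 2 of the members were called higher in KO Tau than in WT PBS, and the same 2 against WT Tau. They were Psmb10, at 0.40 ± 0.11 (adjusted p = 0.00638) and 0.49 ± 0.14 (adjusted p = 0.00633), and Psmc5, at 0.27 ± 0.08 (adjusted p = 0.0222) and 0.25 ± 0.08 (adjusted p = 0.0295). The edgeR fit of the 11 remaining male libraries gave Psmb10 0.39 ± 0.15 (adjusted p = 0.437) and Psmc5 0.27 ± 0.08 (adjusted p = 0.395) against WT PBS. By library, Psmb10 was at 31.6, 44.2 and 43.2 CPM in KO Tau replicates 711, 712 and 713, and at 31.9, 33.1 and 34.8 CPM in WT PBS, so replicate 711 alone did not lie above the WT PBS values. The reason that replicate 711 differs was not tested.

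In females under tau, the fold change of knockout against wild type was below zero for nearly all members. Single libraries overlapped. Members held 0.409% of all counts in KO Tau replicate 325 and 0.387% in WT Tau replicate 341. Log2 fold changes of KO Tau against WT Tau were below zero for all 31 constitutive genes, with a median of -0.17, against a median of -0.01 and 48.0% above zero over all genes, and 5 of 49 members were above zero. None passed adjustment (edgeR; DESeq2 and voom also called 0), where 0.00649% of 15419 genes were called, the single gene being Acss2. At an unadjusted p below 0.05, 4 of 49 passed, all lower, against 2.89% of all genes and 1.59% of all genes in the lower direction. They were Psmb2, Psmb3 and Psmb7 of the beta ring and Psmc2, an ATPase. The highest fold change was that of the activator gene Psme4, at 0.24 ± 0.15 (edgeR, adjusted p = 0.997). Psmb3 was at 38.8 and 37.9 CPM in female WT Tau and at 28.3, 23.6 and 30.99 CPM in female KO Tau. The groups did not overlap, and the log2 fold change was -0.47 ± 0.12 (adjusted p = 0.997). Psmb7 was at 158 and 132 CPM in female WT Tau and at 105, 109.5 and 129 CPM in female KO Tau, a log2 fold change of -0.34 ± 0.13 (adjusted p = 0.997).

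The downward shift in females was not spread evenly over the libraries. Its direction held with DESeq2 and RLE factors, which put 0 and 1 of the 31 genes above zero, and with length and GC offsets, which put 4 there. Constitutive genes in female KO Tau replicate 314 were lower than in the other 2 KO libraries by a median of -0.22 on the log2 scale, and members' share of all counts ran from 0.311% to 0.409% in that group. Without replicate 314 the median over the 31 genes was -0.06, and with length and GC offsets it was -0.08. Without female WT Tau replicate 341 it was -0.28. The size of the shift changed by more than 1.5 times under each of these. The median was -0.13 without female WT Tau replicate 331. Constitutive 20S genes lay higher in replicate 331 than in replicate 341, by a median log2 difference of 0.27. The immunosubunits gave 0.03 ± 0.29 for Psmb8, 0.10 ± 0.32 for Psmb9 and -0.07 ± 0.17 for Psmb10, with errors as large as the shift, and their difference from the constitutive genes was not tested. The genotype effect under tau was compared between the sexes as an interaction, which called 0 of 49 members (edgeR; DESeq2 and voom 0) against 0% of all genes, and 1 of 49 at an unadjusted p below 0.05 against 2.94%. That gene was Psmb3, at -0.48 ± 0.16 (adjusted p = 0.978).

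More members were called between female and male libraries than in any other comparison. Averaged over genotypes under tau, 10 of 49 members were called (20.4%), close to the 23.8% of all 15419 genes, with 4 higher in females, where 11.4% of all genes were, and 6 lower, where 12.4% of all genes were. At an unadjusted p below 0.05, 17 members passed against 39.8% of all genes. The members' shares lay near or below the background in this fit. With length and GC offsets 15 of 49 members were called, 1 higher and 14 lower, against 18.7% of all genes, 7.48% higher and 11.2% lower. In that setting the members' share of lower calls lay above the background, among genes that share libraries. In the fit without offsets, the genes called higher were Psmb8 at 0.71 ± 0.19 (adjusted p = 0.0251), Psmd10, the gankyrin chaperone on the X chromosome, at 0.43 ± 0.13 (adjusted p = 0.0384), Psma6 of the alpha ring at 0.37 ± 0.11 (adjusted p = 0.0393) and the ATPase Psmc6 at 0.37 ± 0.12 (adjusted p = 0.0487). Those called lower were 4 non-ATPase 19S genes, Psmd3 (-0.56 ± 0.10), Psmd2 (-0.37 ± 0.10), Psmd11 (-0.28 ± 0.08) and Psmd8 (-0.24 ± 0.08), with Psmb3 (-0.30 ± 0.08) and the inhibitor gene Psmf1 (-0.34 ± 0.10).

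Psmd3 gave the clearest of these differences. It was at 135, 132 and 141 CPM in male WT Tau and 112, 159 and 151 CPM in male KO Tau, and at 85.5 and 104 CPM in female WT Tau and 93.0, 97.1 and 87.6 CPM in female KO Tau. All female values lay below all male ones, and the adjusted p was 0.00772. It was called in 17 of 17 alternative settings, including each of the 11 libraries left out in turn. The next most stable was Psmd2, called in 13 of 17, followed by Psmb8 in 12 and Psmb3 in 11, while Psma6, Psmc6, Psmd10 and Psmf1 were called in 8, Psmd11 in 7 and Psmd8 in 6. With 1 library left out, between 1 and 18 members were called. The number was 18 without replicate 711, 1 without 331, 713 or 773, 2 without 712, 3 without 324 or 771 and 4 without 325 or 772, where 331 is female WT Tau, 324 and 325 are female KO Tau, 711 to 713 male KO Tau and 771 to 773 male WT Tau.

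By class, the alpha ring lay above zero and most of the 19S cap below. All 7 alpha ring genes were above zero, from 0.03 for Psma1 to 0.37 for Psma6, with a median of 0.17, but with length and GC offsets 4 of 7 were, with a median of 0.03. In the 19S cap, 8 of 11 non-ATPase 19S genes were below zero, with a median of -0.24, and 10 of 11 with the offsets, with the same median. Among the ATPases only Psmc6 was above zero, and Psmb5, Psmb6 and Psmb7 were within -0.08 and 0.00, although Psmb7 was at -0.24 (adjusted p = 0.0372) with the offsets. These classes also differ in base composition. Across the 31 constitutive genes the fold change ran against the GC content of the transcript (Spearman's rho = -0.61, across genes that share libraries and are not independent). With bounds chosen after the values were seen, the 8 constitutive genes under 45% GC lay between 0.03 and 0.37 and the 9 over 53% between -0.56 and 0.00. With length and GC offsets, Psma6 moved to 0.13 (adjusted p = 0.227), Psmc6 to 0.02 (adjusted p = 0.870) and Psmd10 to 0.11 (adjusted p = 0.392). The 8 members called with the offsets and not in the fit without them were all lower: Psma1 (-0.26), Psmb2 (-0.27), Psmb7, Psmc2 (-0.34), Psmc4 (-0.26), Psmd1 (-0.31), Psmd4 (-0.26) and the chaperone gene Psmg2 (-0.42). Psmd3 kept a call at -0.38 (adjusted p = 0.0201), and Psmb8 at 0.77 (adjusted p = 0.0260).

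**Figure D4:**
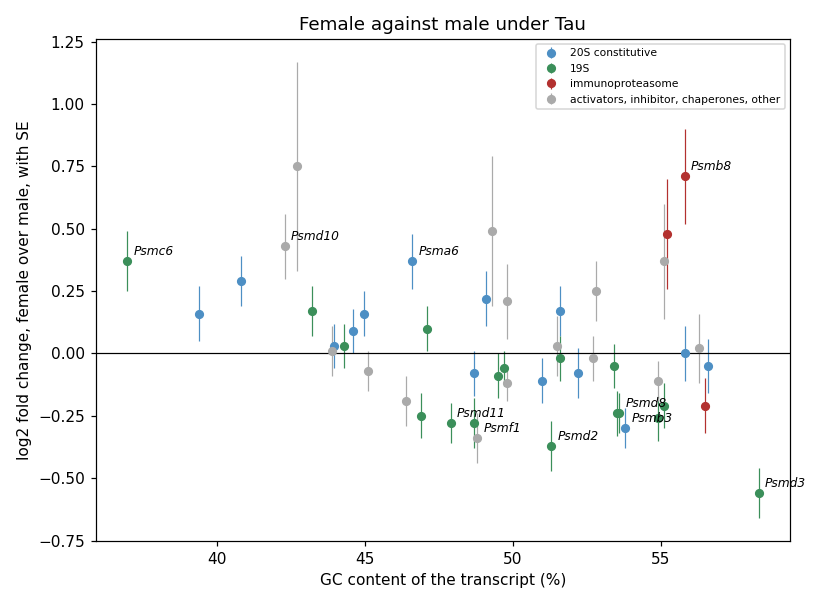
Log2 fold change of each tested proteasome gene between female and male libraries under tau, with its SE, against the GC content of its transcript in percent. Genes named passed an adjusted p of 0.05. Constitutive genes of low GC content lie above zero and those of high GC content at or below it. The highest points are Psma8 at 0.75, on 1 to 15 counts per library and not called, and Psmb8 at 0.71.

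The rise of Psmb8 was then set against its constitutive partner, as a ratio chosen after both values had been seen. Psmb8 was at 9.74 and 8.65 CPM in female WT Tau and 6.22, 11.03 and 10.8 CPM in female KO Tau, against 4.01 to 8.31 CPM in male Tau libraries. Female KO Tau replicate 314 and male KO Tau replicate 711 made the groups overlap. As a share of Psmb5 in TPM, Psmb8 was at 12.2% ± 1.39 (SD, n = 2) in female WT Tau and 12.5% ± 2.63 (n = 3) in female KO Tau, and at 6.51% ± 1.09 and 8.04% ± 2.14 in the matching male groups. The ratio was 0.78 higher on the log2 scale in females, with a permutation p of 0.005, the smallest this design allows, and 0.015 after adjustment over 3 ratios added after the data were seen. Its adjusted p was 0.05 without male WT Tau replicate 771, 772 or 773 and 0.06 without female KO Tau replicate 325, with a ratio of 0.69 to 0.82, and leaving out a library raises the smallest p that the design allows. The ratio of Psmb9 to Psmb6 was 0.49 higher (permutation p = 0.055, adjusted 0.0825), with adjusted values of 0.0375 without female WT Tau replicate 331 and 0.045 without male KO Tau replicate 711, and that of Psmb10 to Psmb7 was 0.12 lower, a difference of -0.12 (permutation p = 0.205). Psmb9 itself differed by 0.48 ± 0.22 (adjusted p = 0.124) and Psmb10 by -0.21 ± 0.11 (adjusted p = 0.188). Psmb9 was called with voom weights (0.60, adjusted p = 0.0334) and without male KO Tau replicate 711 (0.62, adjusted p = 0.0384, edgeR), and Psmb10 was called lower without that replicate (-0.26, adjusted p = 0.0446, edgeR). The call of Psmb8 between the sexes was lost in 5 of 11 fits with a library left out, those without 324, 325 or 331 among the females and 713 or 773 among the males, with adjusted p of 0.0547 to 0.0986 (edgeR).

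Markers of other cell types moved in the same libraries. Of 11 microglia markers, 6 were called higher in females and 0 lower, with a median of 0.53, and their summed level was 656 to 793 CPM in female libraries against 502 to 693 CPM in male Tau libraries. C1qa, C1qb and C1qc were among those called, and the defining genes P2ry12 (0.01 ± 0.15), Tmem119 (0.09 ± 0.08) and Cx3cr1 (-0.03 ± 0.10) were not. Of 8 endothelial markers 5 were called higher, of 6 thalamic markers 3, and of 6 pyramidal markers 1, Wfs1, was called lower, beside 11.4% of all genes called higher and 12.4% lower. Of 20 ribosomal protein genes 4 were called higher and 20 were above zero, with a median of 0.36, and their summed level was 3459 to 5144 CPM in female libraries against 2889 to 4629 CPM in male Tau libraries. Of 10 choroid plexus markers 0 were called (edgeR) and 4 were lower at an unadjusted p below 0.05, with a median of -1.47. Their summed level was 5398 CPM in male KO Tau replicate 713. It was 299 to 1089.7 CPM in the other male Tau libraries and 269 to 791 CPM in female libraries, which overlap. In the male libraries, the 2 with the highest Psmb8, 711 and 753, were also the 2 with the highest microglia sums, 693 and 620.2 CPM. The part of cell composition in the level of Psmb8 was not tested.

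**Figure D5:**
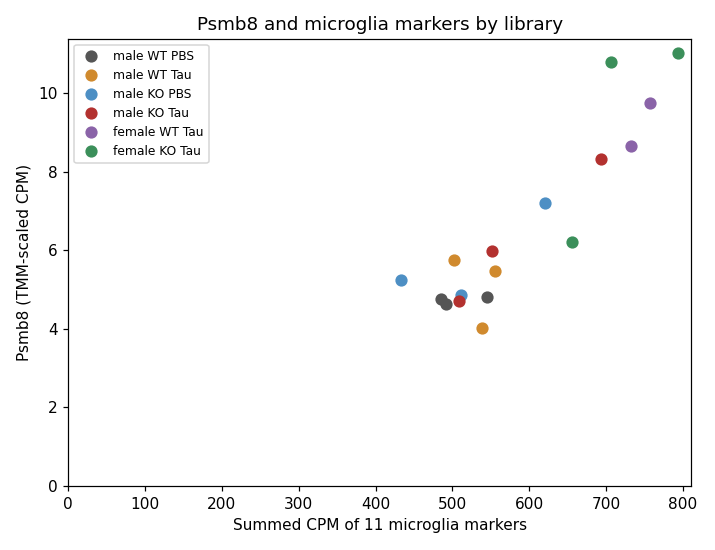
Psmb8 in CPM against the summed CPM of 11 microglia markers, 1 point per library, colored by group, both axes from 0. Of the 5 female libraries, 4 lie at the upper right, and female KO Tau replicate 314, at 6.22 CPM of Psmb8, lies with male KO Tau replicate 711 and male KO PBS replicate 753 between them and the other male libraries.

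Other genes of the pathway were taken from 2 lists. Of 30 ubiquitin-proteasome genes outside the name pattern, 0 were called in the 8 male comparisons by edgeR, DESeq2 or voom, and 0 to 4 passed an unadjusted p of 0.05 with edgeR, with up to 6 under voom weights. Nfe2l1, the transcription factor that raises proteasome genes when proteolysis falls short, differed between KO Tau and WT PBS males by 0.04 ± 0.12, Pomp, the 20S maturation factor, by 0.19 ± 0.12, Usp14, a deubiquitinase of the 19S cap, by -0.20 ± 0.16 and Adrm1, a ubiquitin receptor of the 19S cap, by -0.10 ± 0.09. Between female and male libraries 11 of 30 were called, 4 higher and 7 lower, beside 23.8% of all genes, 11.4% higher and 12.4% lower. Higher were Rps27a (0.60 ± 0.19), a ubiquitin fusion gene, the stress factor Nfe2l2 (0.50 ± 0.13), Shfm1 (0.43 ± 0.11), the older name of the 19S subunit gene Sem1, and the ligase gene Ube3a (0.37 ± 0.09). Among those lower were Uba1 (-0.50 ± 0.12), the main ubiquitin-activating enzyme, the unfoldase gene Vcp (-0.48 ± 0.11) and its cofactor Nploc4 (-0.26 ± 0.08), Adrm1 (-0.47 ± 0.08), the ubiquitin gene Ubb (-0.46 ± 0.10) and the shuttle factor Ubqln2 (-0.38 ± 0.10). Of 10 antigen processing genes 3 were called, all higher, beside the same 11.4%: Nlrc5, the activator of MHC class I genes, at 1.18 ± 0.21, B2m at 0.52 ± 0.11 and H2-K1 at 0.36 ± 0.11.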

How the data were processed

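Poly(A) RNA from 17 mouse libraries was sequenced. The authors aligned reads with STAR 2.5.2 to GRCm38 and counted them over exons in reverse-stranded mode with HTSeq 0.9.1, and the deposited values are raw counts per gene symbol; the annotation release was not given in the sources used here. The labels' extract protocol places a paraformaldehyde perfusion before RNA extraction, and the study's methods give it for histology only. Members and gene lists were chosen with earlier results of these data known. Counts were fitted with the edgeR 4.0.16 quasi-likelihood test (R 4.3.3, filterByExpr minimum count 10 and minimum total 15, TMM) on 12 male libraries (8 comparisons) or 11 Tau libraries, with Benjamini-Hochberg adjustment over all genes tested at an FDR of 0.05, and checked on simulated data. DESeq2 1.42.0, limma 3.58.1 voom weights, RLE factors, no filter, 1 fit of all libraries, length and GC offsets, only the groups compared, and each library left out were alternatives. CPM are TMM-scaled, and TPM use the length of the principal GENCODE transcript. Ratios used a prior count of 0.5. Of 24498 symbols 98.4% were found in the annotation. Named were the catalytic and activator genes, each member called, and members with the largest rise or fall at a mean of at least 1 TPM. The largest rise and fall are not printed for every comparison. Nothing but the labels says that replicates are separate animals; p-values measure the spread between libraries. No 2 of 136 library pairs were identical.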

Additional observations from a re-analysis of the deposited data

How the results depend on the processing

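For the male comparisons and for KO against WT in females, 0 members were called under each alternative and with each library left out, except that DESeq2 on only the groups compared, with 1 library left out, called 0 to 2 for male KO Tau against male WT PBS and 0 to 2 against male WT Tau, the 2 being reached without male KO Tau replicate 711. The last of these settings called as many genes as the study reports for the same comparisons. Between female and male libraries under tau, 10 members were called, 16 with 1 fit of all 17 libraries, 17 with voom weights, and 1 to 18 with a library left out. Among single genes, Psmb9 for male KO Tau against male WT PBS turned to -0.06 with voom weights and ran from -0.07 to 0.29 with a library left out, in the same comparison Psme1 turned to -0.02 with length and GC offsets, and Psme4 ran from -0.01 to 0.09. Psmb9 for the average of Tau over PBS in males ran from -0.26 to 0.00. With a library left out, the log2 ratio of Psmb8 to Psmb5 for Tau against PBS ran from -0.09 to 0.10, that of Psmb10 to Psmb7 from -0.12 to 0.04, and that of Psmb10 to Psmb7 for KO against WT from 0.13 to 0.24. For female against male, Psmb8 to Psmb5 ran from 0.68 to 0.87 and Psmb9 to Psmb6 from 0.32 to 0.66. The causes were not tested. No paired analysis was possible because the groups compared share no replicate numbers. The low counts of Psma8, Psmb9, Psmb11 and Psme2b limit what can be seen for them, and the 95% interval of Psmb9 for male KO PBS against male WT PBS reached 1.10 on the log2 scale.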
